A study of Mus musculus with 6 samples.

Results

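The genes Jph1, Jph2, Trdn, Jsrp1, Bin1, Stac3, Cacnb1, Cav3 and Dysf encode proteins that build or hold the triads and transverse tubules (T-tubules) of skeletal muscle. They were chosen by name for these roles, with earlier results of these data known. They are 9 of the 23061 genes that carry a RefSeq transcript in the mouse annotation of NCBI Build 37 (mm9), on which all positions are given. The libraries show how much RNA polymerase II (Pol II) and how much of the transcription factor Sox6 lay at these genes in fetal myotubes. Sox6 is an HMG-box protein studied in fetal muscle for its part in the choice between slow and fast fibres. All samples were wild type C57BL/6 cells. Myoblasts from limb muscle at E18.5, at passage 17, were kept for 48 h in DMEM with 2% horse serum, in which they fuse into myotubes. Chromatin was fixed with disuccinimidyl glutarate and then formaldehyde, and it was precipitated with an antibody to Sox6 or to Pol II. According to the paper, this Pol II antibody detects a phosphorylated form of the enzyme, taken there as transcriptionally active. Pol II below means what this antibody precipitated. There were 2 libraries of Sox6, 2 of Pol II and 2 of unprecipitated input DNA, amplified by 18 cycles of PCR and read from a single end. Every library came from the same kind of cell, so no second condition or genotype was compared, and each comparison below sets a precipitation against input.

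A triad is the place where a T-tubule, an inward fold of the muscle cell membrane, lies between a pair of terminal cisternae of the sarcoplasmic reticulum. Depolarisation of the T-tubule moves the voltage sensor of the L-type calcium channel, which opens the ryanodine receptor of the reticulum and releases calcium for contraction. Junctophilins tie the membranes together, triadin and JP-45 sit in the junctional reticulum, the channel's β1 subunit and Stac3 bring the voltage sensor to the junction and couple it, and amphiphysin 2, caveolin-3 and dysferlin shape or repair the tubule membrane. In developing muscle these structures form late, as myotubes mature.

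The sequences shown first are those where Sox6 peaks were deposited at or near these genes. A common peak is one the authors found in both Sox6 experiments. The 4 intervals below hold the only common peak within the search distance (the one beyond the end of Jph1), the peak nearest to a start site (upstream of Jph1), the one peak inside a gene that passed the test with the reads of the other experiment (in an intron of Jph2), and the common peak beyond the end of Dysf. They are read from the plus strand of the mm9 genome, and capitals mark matches on either strand to the Sox letters ACAAAG and ACAATG or to the E-box letters CAGCTG and CAGGTG, which myogenic factors of the MyoD family can bind. The marked matches do not overlap one another. For Dysf the middle 300 bases of a 340 bp interval are given.
Jph1 common peak, chr1:16951582-16951721: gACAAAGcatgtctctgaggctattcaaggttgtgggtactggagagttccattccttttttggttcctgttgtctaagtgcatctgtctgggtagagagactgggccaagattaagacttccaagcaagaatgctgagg
Jph1 upstream peak of Sox6 replicate 1, chr1:17088692-17088851: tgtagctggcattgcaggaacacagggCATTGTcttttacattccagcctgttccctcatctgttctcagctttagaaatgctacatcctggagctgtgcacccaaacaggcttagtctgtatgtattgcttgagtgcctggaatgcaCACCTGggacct
Jph2 intron 3 peak of Sox6 replicate 2, chr2:163170852-163170891: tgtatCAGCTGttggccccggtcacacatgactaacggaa
Dysf common peak, chr6:84193481-84193780: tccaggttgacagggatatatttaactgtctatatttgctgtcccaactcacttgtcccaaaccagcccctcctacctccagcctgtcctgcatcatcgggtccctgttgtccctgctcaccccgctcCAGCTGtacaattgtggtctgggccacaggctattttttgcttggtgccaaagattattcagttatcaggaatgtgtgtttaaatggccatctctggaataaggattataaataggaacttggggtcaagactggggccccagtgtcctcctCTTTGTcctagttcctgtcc

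The printed Jph1 common peak holds 1 Sox match at its left edge, the upstream peak holds a Sox and an E-box match, the Jph2 interval holds an E-box match, and the Dysf interval holds both. In 200 bp around the peak centre, a window of one size for all peaks, a Sox match lay in 58.4% and an E-box match in 66.4% of the 1066 common peaks. The letters CCACA, which Runx factors can bind, lay in 68.9% of these windows, and GGAATG, the MCAT letters of Tead factors, in 28.4%. On this scale the Jph1 common peak had 1 Sox, 0 E-box, 2 Runx and 1 Tead match. The Dysf common peak had 0 Sox, 1 E-box, 2 Runx and 1 Tead match, because its Sox letters lie outside the 200 bp. These counts were not tested.

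The 250 bp before the start sites give a second set, shown for 4 genes with E-box letters there and a Pol II level among the higher ones below. As they were picked on both traits, they show no relation between them. Bin1, with the highest Pol II level, and Cacnb1 had no E-box match in this window. Jph1 had a match and a lower Pol II level and is not shown. The sequences are written 5′ to 3′ in the direction of transcription, in mm9, with the same capitals, and end on the base before the start.
Jph2, chr2:163223730-163223979, minus strand: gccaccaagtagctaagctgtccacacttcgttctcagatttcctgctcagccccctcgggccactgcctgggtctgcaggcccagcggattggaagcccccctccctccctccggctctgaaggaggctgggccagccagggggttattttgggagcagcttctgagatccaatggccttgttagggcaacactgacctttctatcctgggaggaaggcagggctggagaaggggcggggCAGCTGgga
Jsrp1, chr10:80276241-80276490, minus strand: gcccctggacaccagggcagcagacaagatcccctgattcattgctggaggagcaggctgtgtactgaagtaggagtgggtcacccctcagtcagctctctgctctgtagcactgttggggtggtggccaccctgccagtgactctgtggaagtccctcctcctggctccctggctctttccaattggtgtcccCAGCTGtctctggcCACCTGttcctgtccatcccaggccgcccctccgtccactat
Stac3, chr10:126938492-126938741, plus strand: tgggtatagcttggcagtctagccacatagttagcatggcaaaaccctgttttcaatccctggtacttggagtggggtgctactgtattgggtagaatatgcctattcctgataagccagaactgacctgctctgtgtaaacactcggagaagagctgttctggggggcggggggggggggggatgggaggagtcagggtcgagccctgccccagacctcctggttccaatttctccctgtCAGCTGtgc
Cav3, chr6:112409245-112409494, plus strand: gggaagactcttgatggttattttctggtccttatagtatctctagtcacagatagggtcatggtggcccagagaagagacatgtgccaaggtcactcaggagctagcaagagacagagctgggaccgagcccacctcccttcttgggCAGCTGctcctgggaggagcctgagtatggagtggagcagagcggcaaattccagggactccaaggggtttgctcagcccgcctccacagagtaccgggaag

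An E-box match lay in this window in 5 of the 9 genes, against 26.8% of all 23061 genes. Its first base was 9 bp before the start in Jph2 and in Stac3, 56 and 42 bp before it in Jsrp1, 82 bp in Jph1 and 102 bp in Cav3. Sox letters lay in the window of 2 of the 9 genes, Trdn and Cacnb1, against 22.6% of all genes. Runx letters lay in 4 of 9 against 46.8%, and the MCAT letters in 1 of 9, Bin1, against 11.7%. These matches are a description of the letters and were not tested as binding sites.

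The Sox6 libraries held 2985437 and 1468604 mapped reads, the Pol II libraries 1538757 and 2762155, and the input libraries 21973495 and 24249850. Levels are given as RPM, reads scaled to 1000000 mapped reads in the library, or, over a length, as RPM per kb (RPKM). A count of 3 reads, taken as the floor, was 1.005 and 2.04 RPM in the Sox6 libraries and 1.95 and 1.09 RPM in the Pol II libraries. Of 10 genes that mark myotubes, Pol II was higher than input over the body of 10, while it was higher over 0 of 4 fibroblast genes and 0 of 7 genes of endothelium, blood, Schwann cells, fat and neurons. Among all gene bodies tested, 37.2% were higher and 24.9% lower. Both myoblast genes tested also had more Pol II than input over the body, with log2 ratios of 1.21 for Pax7 and 2.28 for Myf5. Within 500 bp of the start, 9 of the 10 myotube genes were higher, where 47.1% of all genes tested were. Neb had no call there, with a log2 ratio of 0.76 from 0 and 4 reads against 8 and 11. In such bulk chromatin, much Pol II in some nuclei and less of it in all of them cannot be told apart.

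Pol II lay over the whole length of most of these genes, and its level spanned more than a factor of 10 among them. The mean of the Pol II libraries ran from 13.2 RPKM for Bin1 over 11.02 for Cav3, 10.2 for Jph2, 8.89 for Jsrp1, 8.74 for Stac3, 7.73 for Cacnb1, 4.90 for Dysf and 2.74 for Jph1 to 1.03 RPKM for Trdn. Among neighbours in this order only Jsrp1 and Stac3 had overlapping libraries, with 9.37 and 8.41 against 8.56 and 8.93 RPKM (replicate 1, then replicate 2, as throughout). With repeated positions counted once, Stac3 (mean 8.93 RPKM) lay above Jsrp1 (8.79 RPKM). With 2 libraries a gene, the order of these close levels was not tested. The median gene of the annotation had 0.427 and 0.411 RPKM. In both libraries 7 of the 9 genes lay above the 95th percentile of all genes, the exceptions being Jph1 at percentiles 91.6 and 90.9 and Trdn at 70.9 and 71.0. Actb, a housekeeping gene, had 26.4 and 35.8 RPKM. Input lay between 0.4997 and 1.02 RPKM for all 9 genes, below Pol II at each of them. The order above is of Pol II alone and changed when set against input. By the log2 ratio over the gene body, given below, Bin1 stayed highest (4.22). Cav3 (3.54) came after Jsrp1 (3.84), Jph2 (3.77) and Cacnb1 (3.74).

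**Figure D1:**
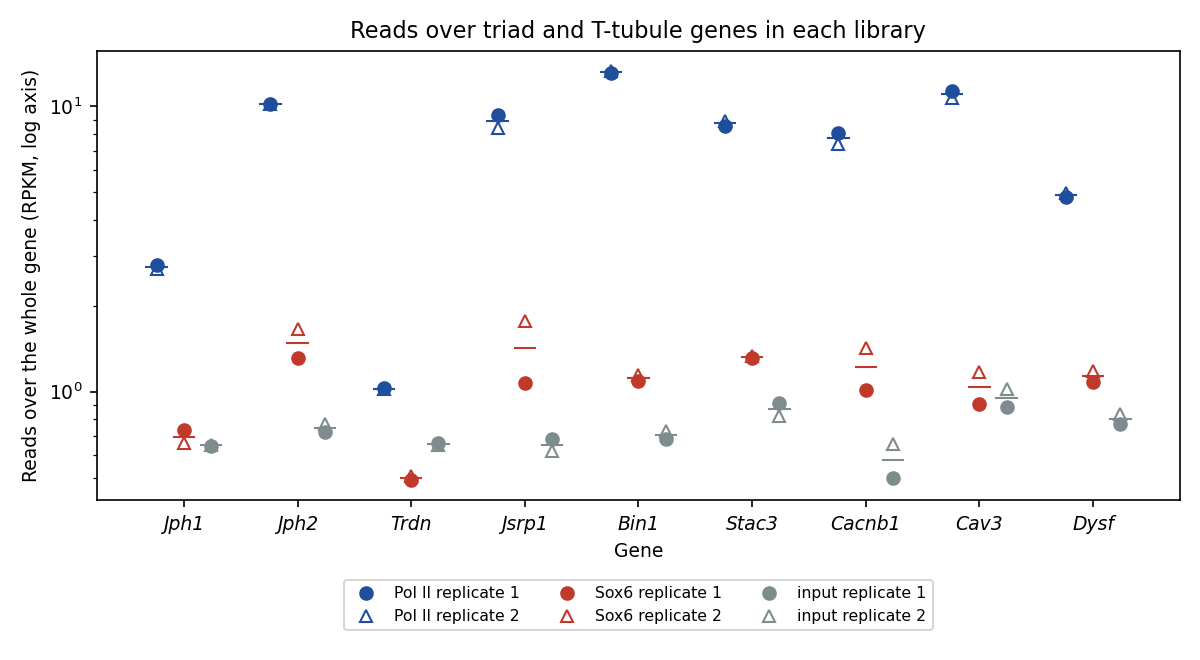
Reads over the whole gene (RPKM, logarithmic axis) for the 9 triad and T-tubule genes in each Pol II, Sox6 and input library; bars mark the mean of each pair. Pol II runs from 1.03 RPKM at Trdn to 13.2 RPKM at Bin1 and lies above input at every gene, and Sox6 stays below 2 RPKM throughout.

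Against input, Pol II was higher at the start site of 9 of 9 genes, where 47.1% of the 18756 genes tested were higher. The window was 500 bp to either side of the start, and the value is the difference of log2 RPM after adding 0.5 reads, with limma's adjusted p over all genes. Folds are given on the same scale. The members' median log2 ratio was 3.35 and that of all genes tested was 1.41. With an addition equal in RPM in all libraries, the median of all genes was 1.02. The 0.5 reads weigh more in the shallower Pol II libraries, so ratios from few Pol II reads are lifted. Over the gene body, from 500 bp past the start to the gene's end, Pol II was again higher for 9 of 9, where 37.2% of 20754 genes were higher and 24.9% were lower. The median there was 3.54, and 0.13 for all genes. When libraries were scaled to bins without peaks instead of to all mapped reads, every Pol II ratio moved up by 0.49, and the body calls over all genes changed from 7729 higher and 5174 lower to 9823 higher and 2888 lower. The 9 calls stood in both windows under that scaling. With 2 libraries against 2, an exact permutation test of a single gene could not go below p = 0.333, so the p-values rest on the spread shared over genes. They measure the spread between these libraries only.

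**Figure D2:**
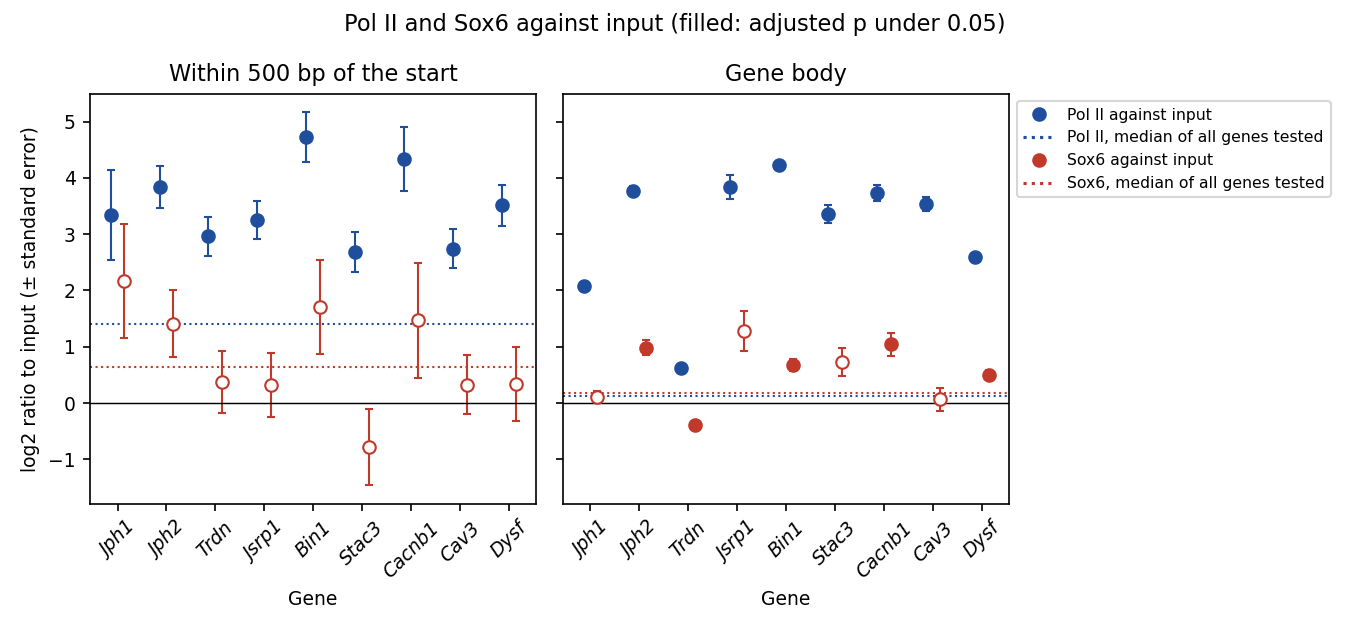
Log2 ratio to input (± standard error) of Pol II and Sox6 within 500 bp of the start (left) and over the gene body (right), with filled points for an adjusted p under 0.05 and dotted lines for the median of all genes tested. All 18 Pol II values are filled, from 0.63 for the body of Trdn to 4.73 for the start of Bin1, and Sox6 is filled in 5 gene bodies and at no start.

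The junctophilins span the gap between tubule and reticulum, and the 2 muscle members had unlike Pol II levels. Jph1 lies on chromosome 1 from 16987545 to 17087879 (minus strand, 100 kb, 5 exons) and had 2.79 and 2.70 RPKM of Pol II over the gene, against 0.647 and 0.650 RPKM of input. Jph2, the junctophilin of heart as well as skeletal muscle, lies on chromosome 2 from 163161985 to 163223729 (minus strand, 61.7 kb, 7 exons) and had 10.2 and 10.2 RPKM against 0.719 and 0.773 RPKM of input. The libraries of the pair did not overlap, and Jph2 was the higher in each. At the Jph1 start there were 2 and 7 Pol II reads against 3 and 6 input reads, which gave a log2 ratio of 3.35 (SE 0.80, adjusted p = 0.000102). These are few reads, and with a window of 250 bp the gene no longer passed the minimum of 10 reads. At the Jph2 start there were 17 and 25 Pol II reads, or 11.05 and 9.05 RPM, against 17 and 15 input reads, or 0.774 and 0.619 RPM, a log2 ratio of 3.84 (SE 0.37, adjusted p = 2.23e-23). Over the body the ratio was 2.08 (SE 0.08) for Jph1 and 3.77 (SE 0.08) for Jph2, or 4.21-fold and 13.7-fold, with adjusted p = 2.50e-08 and 1.15e-09. Along Jph1, cut into 10 equal parts from its start, Pol II stayed between 1.75 and 3.46 RPKM in both libraries. Along Jph2 it was 14.1 and 13.4 RPKM in part 1 and 7.68 and 9.21 RPKM in part 10.

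Triadin and JP-45, the product of Jsrp1, are membrane proteins of the junctional reticulum, and their genes had unlike levels of Pol II. Trdn, a gene of 393 kb and 38 exons on chromosome 10 from 32803289 to 33196515 (plus strand), had 1.03 and 1.03 RPKM of Pol II against 0.660 and 0.650 RPKM of input. Its start held 16 and 20 Pol II reads, or 10.4 and 7.24 RPM, against 25 and 27 input reads, or 1.14 and 1.11 RPM. The log2 ratio at the start was 2.96 (SE 0.35, adjusted p = 2.94e-16), and it ran from 3.58 in a window of 250 bp to 2.23 in one of 1000 bp to either side. Over the body, 609 and 1098 Pol II reads met 5687 and 6184 input reads, a ratio of 0.63 (SE 0.06, adjusted p = 1.72e-05), which is 1.54-fold and lies 0.50 above the median of all genes. Pol II density in the start window was 10.3 and 7.15 times that of the body, against 1.72 and 1.71 times for input. In the other 8 genes the same quotient for Pol II lay between 0.465 and 2.04.

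The Pol II level was lower further along Trdn, which is given as a description. Part 1 of 10 had 1.75 and 1.55 RPKM. Part 9 had 0.43 and 0.424 RPKM, where input had 0.575 and 0.534 RPKM, and part 10 had 0.43 and 0.451 RPKM, where input had 0.542 and 0.472 RPKM. Which of them was higher there depended on the scaling. With libraries scaled to bins without peaks, part 9 had 0.585 and 0.585 for Pol II against 0.555 and 0.524 for input, and part 10 had 0.585 and 0.623 against 0.523 and 0.463. Annotated transcripts end at 3 places inside the gene, counting the last, and the Pol II level was lower past each inner end. Up to the first end, 113.7 kb from the start, it was 1.53 and 1.39 RPKM, over the next 36.8 kb 1.17 and 1.25 RPKM, and over the last 242.7 kb 0.771 and 0.822 RPKM. Input over the same segments was 0.796 and 0.797, then 0.712 and 0.760, then 0.588 and 0.564 RPKM. Both quantities were thus lower further along, and whether Pol II and input differed in this was not tested. Jsrp1, on chromosome 10 from 80271246 to 80276240 (minus strand, 4.995 kb, 7 exons), had 9.37 and 8.41 RPKM of Pol II against 0.683 and 0.619 RPKM of input. Its start held 18 and 26 Pol II reads against 21 and 31 input reads, a log2 ratio of 3.25 (SE 0.34, adjusted p = 1.02e-20). Its body gave 3.84 (SE 0.21, adjusted p = 2.91e-07), or 14.3-fold, and Pol II there was uneven. Parts 2 and 3 of 10 held 23.4 and 10.4 RPKM in replicate 1 and 16.7 and 17.4 in replicate 2, while part 4 held 3.91 and 1.45 RPKM. Each part of this short gene is 500 bp, so these rest on few reads.

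**Figure D3:**
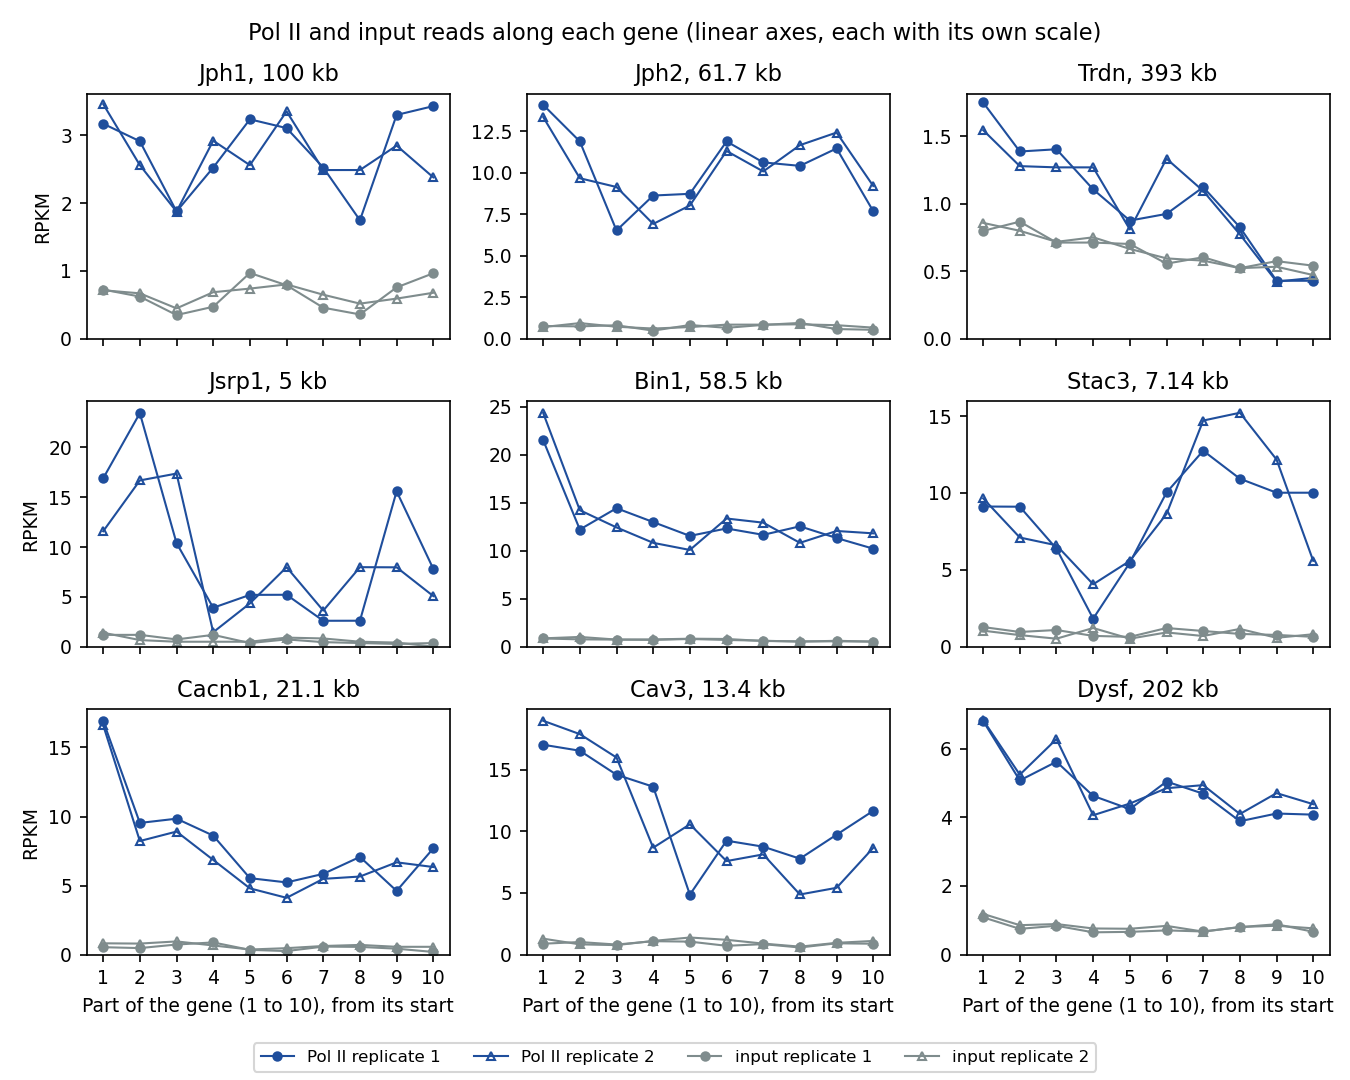
Pol II and input reads (RPKM, linear axes with a scale of their own in each panel) in 10 equal parts of each gene from its start, by library. Pol II stays above input along most genes, lies below it in parts 9 and 10 of Trdn (0.43 and 0.424 RPKM, then 0.43 and 0.451 RPKM, an order that turns when libraries are scaled to bins without peaks), and reaches 21.5 and 24.4 RPKM in part 1 of Bin1.

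The β1 subunit of the L-type calcium channel, encoded by Cacnb1, and the adaptor Stac3 are both needed for coupling of the voltage sensor to calcium release. Cacnb1 lies on chromosome 11 from 97862822 to 97883948 (minus strand, 21.1 kb, 14 exons) and had 8.09 and 7.37 RPKM of Pol II against 0.4997 and 0.654 RPKM of input. At its start, 7 and 15 Pol II reads stood against 5 and 6 input reads, a log2 ratio of 4.34 (SE 0.57, adjusted p = 4.10e-13). These are few reads, at 4.55 and 5.43 RPM of Pol II and only 0.228 and 0.247 RPM of input. The ratio moved with the window, to 6.23 at 250 bp and 3.28 at 1000 bp, and stayed past the threshold in both. Over the body the ratio was 3.74 (SE 0.14, adjusted p = 3.14e-08), or 13.3-fold. Part 1 of 10 held 16.9 and 16.6 RPKM and part 10 held 7.69 and 6.34 RPKM. The gene has other annotated starts, and the one of a coding transcript 4.26 kb inside it held 13 and 18 Pol II reads against 13 and 16 of input. Rpl19, a ribosomal protein gene on the other strand, starts 4076 bp away, does not overlap Cacnb1, and had 4.47 and 6.03 RPKM of Pol II. The reads carry no strand of transcription, and what part of the signal near the start belongs to it was not tested.

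Stac3, on chromosome 10 from 126938742 to 126945879 (plus strand, 7.14 kb, 12 exons), had 8.56 and 8.93 RPKM of Pol II against 0.912 and 0.820 RPKM of input. Its start held 10 and 25 Pol II reads, or 6.50 and 9.05 RPM, against 27 and 29 input reads, or 1.23 and 1.20 RPM. The log2 ratio was 2.69 (SE 0.35, adjusted p = 2.31e-13). Over the body it was 3.36 (SE 0.15, adjusted p = 9.83e-08), or 10.3-fold. Pol II was low in part 4 of 10, with 1.82 and 4.06 RPKM, and high in parts 7 and 8, with 12.7 and 10.9 RPKM in replicate 1 and 14.7 and 15.2 RPKM in replicate 2. An annotated start of a retained-intron transcript lies 5.54 kb inside the gene, within part 8, and its window held 16 and 44 Pol II reads against 18 and 22 of input, more Pol II reads than the start at the gene's beginning.

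The genes of T-tubule membrane proteins included the one with the highest Pol II level of the set. Bin1 encodes amphiphysin 2, a BAR-domain protein that bends membrane into tubules. It lies on chromosome 18 from 32536871 to 32595390 (plus strand, 58.5 kb, 19 exons) and had 13.1 and 13.3 RPKM of Pol II against 0.684 and 0.725 RPKM of input. At its start 14 and 27 Pol II reads, or 9.10 and 9.77 RPM, stood against 9 and 7 input reads, or 0.410 and 0.289 RPM. The log2 ratio was 4.73 (SE 0.44, adjusted p = 3.04e-25) and was 3.89 in a window of 1000 bp. It was 4.67 in one of 250 bp, where that of Cacnb1 was higher (6.23) but rested on few input reads. Over the body it was 4.22 (SE 0.07, adjusted p = 7.51e-10), or 18.6-fold. Pol II was 21.5 and 24.4 RPKM in part 1 of 10 and between 10.1 and 14.4 RPKM in all the others. A non-coding gene on the other strand, A830052D11Rik, overlaps Bin1 with its start 1067 bp away, and had 1.45 and 1.51 RPKM of Pol II.

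Cav3 encodes caveolin-3, the muscle protein of caveolae, which take part in tubule formation. It lies on chromosome 6 from 112409495 to 112422865 (plus strand, 13.4 kb, 2 exons) and had 11.4 and 10.7 RPKM of Pol II against 0.882 and 1.02 RPKM of input. At its start 10 and 29 Pol II reads stood against 28 and 30 input reads, a log2 ratio of 2.74 (SE 0.34, adjusted p = 1.93e-14), and over the body it was 3.54 (SE 0.12, adjusted p = 1.61e-08), or 11.6-fold. Pol II was 17.01 and 18.95 RPKM in part 1 of 10 and 11.7 and 8.66 RPKM in part 10. Dysf encodes dysferlin, a ferlin that takes part in membrane repair and is found at T-tubules. It lies on chromosome 6 from 83958584 to 84161054 (plus strand, 202 kb, 55 exons) and had 4.81 and 4.98 RPKM of Pol II against 0.772 and 0.837 RPKM of input. At its start 14 and 28 Pol II reads stood against 13 and 29 input reads, a log2 ratio of 3.51 (SE 0.36, adjusted p = 6.26e-21), and over the body it was 2.60 (SE 0.07, adjusted p = 3.49e-09), or 6.06-fold. Pol II was 6.80 and 6.83 RPKM in part 1 of 10 and 4.08 and 4.38 RPKM in part 10. A second coding start 10.8 kb inside Dysf held 8 and 19 Pol II reads against 28 and 28 of input.

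The authors' own Pol II peaks were spread in the same uneven way. A peak overlapped the gene or the 1 kb before it for all 9 genes in both lists, which held 11299 and 17488 peaks, and so it did for 12.7% of all genes. Within 1 kb of the start, 9 genes had a peak in replicate 1 and 7 in replicate 2, the ones without being Jph1 and Trdn, where 9.25% and 13.7% of all genes had one. Peaks covered 59.9% and 75.2% of Bin1, 37.4% and 63.6% of Jph2, 38.1% and 55.0% of Cav3, and 34.2% and 62.1% of Stac3. They covered 31.5% and 42.2% of Jsrp1, 20.5% and 31.4% of Cacnb1 and 4.59% and 14.7% of Dysf. Jph1 was covered to 1.07% and 1.53%, and Trdn to 0.137% and 0.0155%, by 2 peaks and 1 peak. The 2 genes with the lowest RPKM thus had the least peak cover. Pol II replicate 2, the deeper library, had the larger cover for every gene but Trdn.

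Most of these genes belong to small families, and the muscle member carried the highest Pol II level among the family members listed here. Of 14 paralogs, Pol II was higher than input over the body of 4, lower over 8 and without a call over 2. Among all gene bodies tested, 37.2% were higher and 24.9% lower. The paralogs' median log2 ratio was -1.03, against 0.13 for all genes. Scaled to bins without peaks, the 8 ratios stayed below 0, but Bin2 (-0.57) and Cav2 (-0.73) lost their calls, and Jph3 became higher than input (0.47, adjusted p = 0.0287 by limma), so that 5 were higher and 6 lower. The 4 higher ones without that scaling were Stac2 (0.98), Bin3 (1.01), Myof (1.81) and Cacnb3 (1.85). At the start 3 of them, Bin3 (1.504), Stac2 (2.31) and Myof (2.82), were higher than input, 6 paralogs had no call and 5 had too few reads to test. Among all starts tested, 47.1% were higher. Myoferlin, the ferlin of fusing myoblasts, had 2.57 and 2.57 RPKM, beside 4.81 and 4.98 for Dysf and 0.123 and 0.130 for Otof, the ferlin of hair cells. Cacnb3, a β subunit of other tissues, had 1.27 and 2.06 RPKM beside 8.09 and 7.37 for Cacnb1, while Cacnb2 had 0.129 and 0.0963 and Cacnb4 0.196 and 0.208 RPKM. Stac2 had 1.12 and 0.967 and Stac 0.187 and 0.124 RPKM beside 8.56 and 8.93 for Stac3. The neuronal junctophilins Jph3 and Jph4 had 0.357 and 0.455, and 0.257 and 0.251 RPKM. Amph, the neuronal amphiphysin, had 0.058 and 0.066 RPKM beside 13.1 and 13.3 for Bin1, and Bin3 had 1.20 and 1.13 and Bin2 0.158 and 0.103 RPKM. Cav1 and Cav2, the caveolins of other cells, had 0.353 and 0.362, and 0.164 and 0.730 RPKM, with log2 ratios to input of -1.001 and -1.23. No library of a paralog reached the lower library of the muscle member of its family, Jph1 included.

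**Figure D4:**
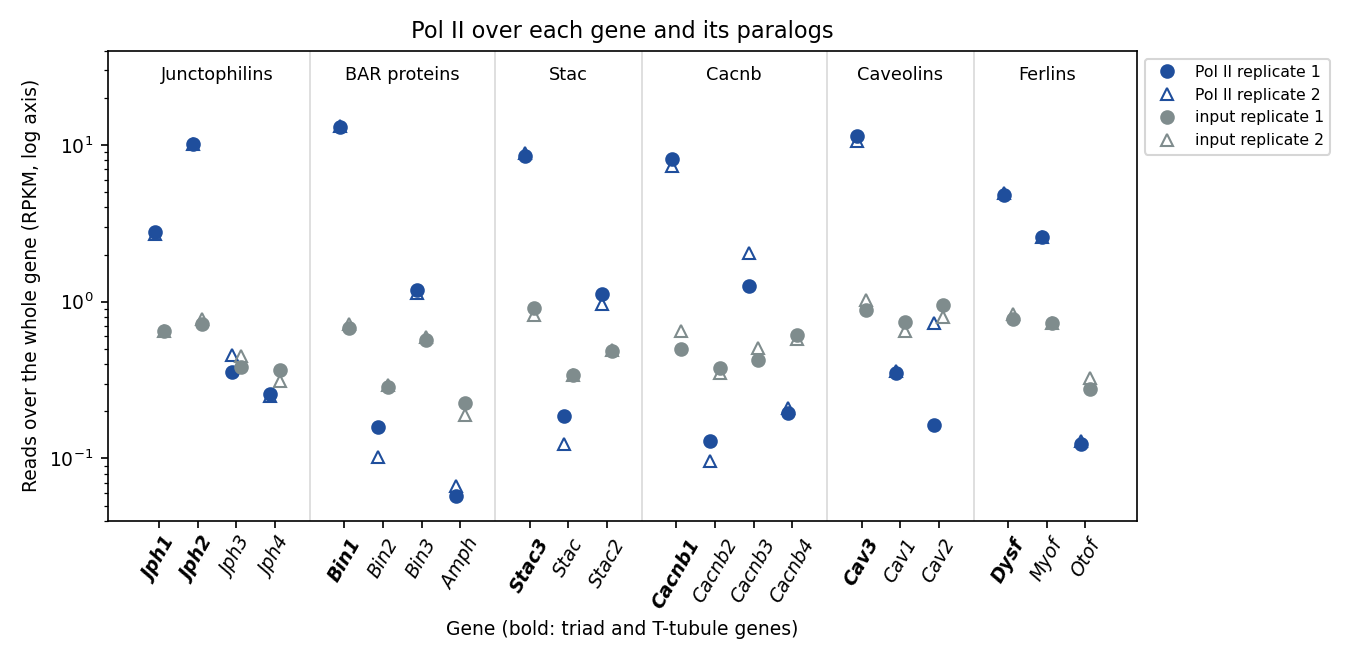
Pol II and input over the whole gene (RPKM, logarithmic axis) in both libraries for the listed members of 6 families, with the triad and T-tubule genes in bold. In each family the bold gene or genes lie highest, with Myof (2.57 and 2.57 RPKM) and Cacnb3 (1.27 and 2.06 RPKM) next among the rest.

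Other genes of excitation-contraction coupling were mostly occupied as well. In a list of 30, Pol II was higher than input at the start of 23, against 47.1% of all genes tested. At 7 starts it had no call, and the median log2 ratio was 3.38. Of all gene bodies tested, 37.2% were higher and 24.9% lower. Over the body Pol II was higher for 24 of the 30, lower for 2 and without a call for 4, with a median of 2.55. The 2 lower ones, named after their values were seen, were Ryr3 (-0.53) and Mtm1 (-0.38), and neither had a call when scaled to bins without peaks (-0.04 and 0.11), where 26 of the 30 were higher. The highest ratios at the start were those of Atp2a1, the fast calcium pump (5.16, with 41 and 72 reads against 23 and 12), Trim72, a membrane repair protein (4.91, 48 and 66 against 17 and 25), and Cacna1s, the voltage sensor (4.74, 34 and 30 against 10 and 17). The lowest were those of Sln (-0.33, 0 and 1 against 8 and 17), Prkcdbp (-0.05, 0 and 0 against 4 and 7) and Pln (0.10, 3 and 1 against 29 and 19), and none of these 3 had a call. These values rest on 0 to 3 Pol II reads a library, which do not set their order, and Mtm1 (0.11, 0 and 1 against 9 and 8) lay beside Pln. Sarcolipin and phospholamban, the products of Sln and Pln, restrain the calcium pump.

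Sox6 had few reads at the starts of these genes and 1 common peak in reach. Within 20 kb of the genes, or 150 kb for Jph1, lay 1 of the 1066 common peaks, and it lay beside Jph1 at the wider distance. Of all 23061 genes, 4.33% had a common peak in or within 20 kb, 2.21% had one overlapping them and 7.11% had one within 50 kb. At 20 kb 0 of the 9 genes had one, and within 50 kb 3 had: Jph1, Bin1 and Dysf. The members just outside the 20 kb limit were thus Dysf, with a common peak 32.4 kb past its end, and Bin1, with one 37.1 kb before its start, and the single-replicate peak 18.0 kb before Dysf lay just inside it.

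The Jph1 common peak is 140 bp wide and lies between genes, 35.8 kb past the end of Jph1 and 136 kb from its start, which is the nearest start of any gene. In 450 bp around its centre were 21 and 8 Sox6 reads, or 7.03 and 5.45 RPM, against 8 and 18 input reads, or 0.364 and 0.742 RPM. Its log2 ratio was 3.57 (SE 0.46), and the median of all common peaks was 3.52, so it lay near the middle of them. Over all common peaks 96.7% were higher than input by this fit, and since the peaks were called on these reads this is a description. Pol II had 2 and 3 reads there and a log2 ratio of 1.401 (SE 0.69, adjusted p = 0.0656), where 58.8% of common peaks had a call. The Pol II call was gained with a window of 1000 bp (1.19) or the peak-free scaling (1.89), over a range of adjusted p from 0.00944 to 0.373.

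The Dysf common peak had 17 and 17 Sox6 reads, or 5.69 and 11.6 RPM, against 10 and 12 input reads, or 0.455 and 0.495 RPM, a log2 ratio of 4.07 (SE 0.46). In a window of 1000 bp it was 3.03, beside 3.10 for the Jph1 peak, so the order of the 2 turned with the window. Pol II lay there too, with 8 and 13 reads and a ratio of 3.39 (SE 0.50, adjusted p = 1.23e-10), past the threshold in every setting tried and 2.59 in a window of 1000 bp. Beside Bin1, at chr18:32499782-32499861, there were 13 and 6 Sox6 reads against 9 and 17 input reads, a ratio of 3.002 (SE 0.48). Pol II had 3 and 4 reads there and a ratio of 1.79 (adjusted p = 0.00892), a call that ended with a pseudocount equal in RPM (1.58, adjusted p = 0.0659) and without Pol II replicate 1 (1.54), input replicate 1 (1.42) or input replicate 2 (2.15). With so few reads a call at this peak depends on 1 library.

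Each Sox6 experiment also had a peak list of its own, with 2888 and 1734 peaks, and 8 of these lay within the search distance, 4 from each list. They fell to 5 genes, and Jsrp1, Stac3, Cacnb1 and Cav3 had none. Jph1 was searched to 150 kb, but it also had 1 peak of each list within 20 kb. The share of all genes with such a peak was not counted, so whether 5 genes is many cannot be told. Of the 8 peaks, 3 lay inside genes, all in introns. Of the 8, 2 overlap each other and make up the common peak beside Jph1, so the other experiment had called that site too. The other 6, 3 from each list, had no overlapping peak in the other list. They were tested with the Sox6 and input reads of the experiment that had not called them, by an exact two-sided binomial test adjusted over all peaks of their list, and 2 of 6 passed. Among all peaks without an overlapping one in the other list, 54.9% of those from replicate 1 and 70.5% of those from replicate 2 passed. The test covers the counting error of 1 library against 1 and no spread between experiments.

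Both peaks at the common site beside Jph1 are given as a description. The replicate 1 peak at chr1:16951212-16951671 had 6 Sox6 against 12 input reads in replicate 2. The replicate 2 peak at chr1:16951632-16951731 had 19 against 8 in replicate 1. Of the peaks called once, the intron 3 peak of Jph2 passed, with 6 against 5 reads in replicate 1 (exact test, adjusted p = 0.00123), and also held 11 and 15 Pol II reads. So did a peak 6.2 kb past the end of Bin1, with 4 against 16 reads in replicate 2 (exact test, adjusted p = 0.0374) and 17 and 21 Pol II reads.

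The other 4 did not pass. The one nearest to a start, 0.892 kb before Jph1, had 16 Sox6 reads in replicate 1, where it was called, and 3 in replicate 2 against 14 of input (exact test, adjusted p = 0.0928), and it passed with both inputs pooled (adjusted p = 0.047). A peak in intron 2 of Jph1 had 3 Sox6 against 17 input reads in the replicate that had not called it (exact test, adjusted p = 0.743). One in intron 10 of Trdn, at chr10:32973872-32973971, had 2 against 24 (exact test, adjusted p = 0.692), and the one before Dysf had 5 against 18 (exact test, adjusted p = 0.203).

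**Figure D5:**
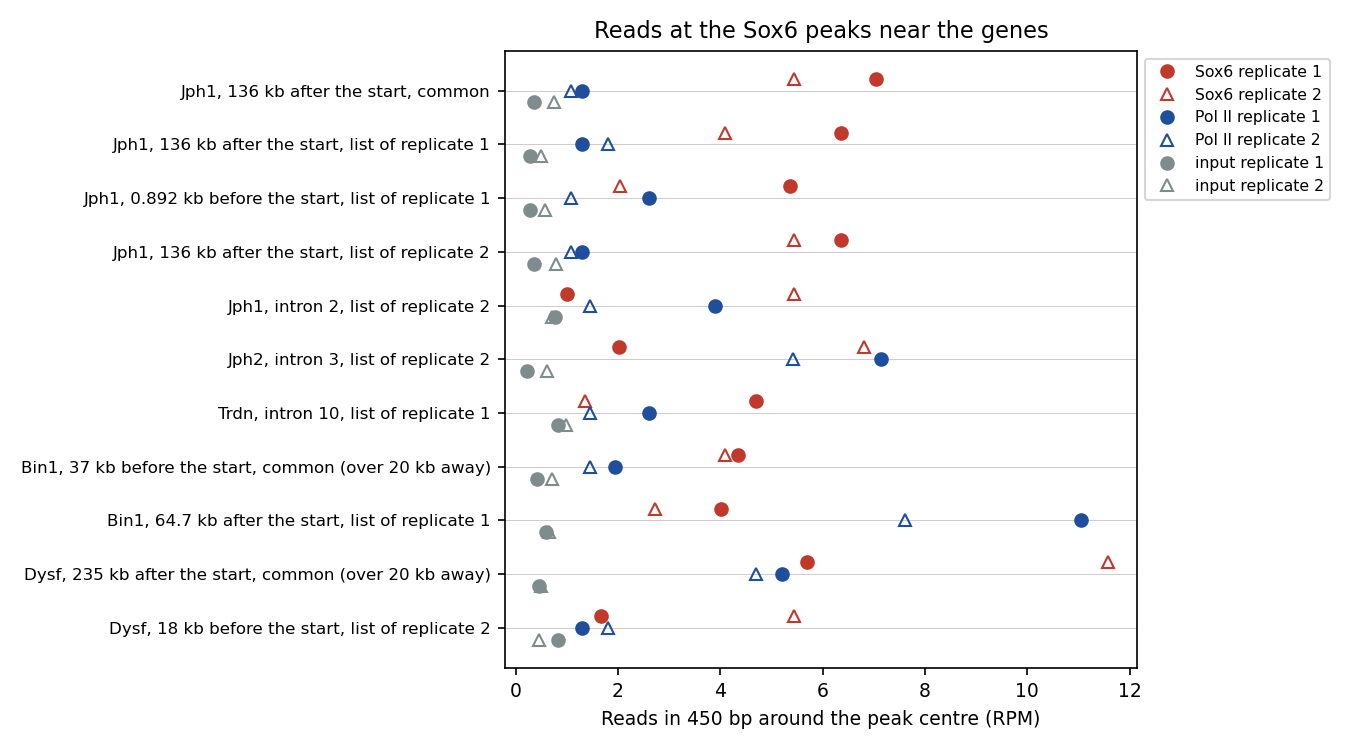
Reads in 450 bp around the centre of each Sox6 peak near the genes (RPM, linear axis), by library. Sox6 lies right of input in both libraries at every peak drawn. The peaks were called on these reads, so this is a description and no support for those that did not pass the test. In the library that had not called them, Sox6 had 3 reads in intron 2 of Jph1 and 2 in intron 10 of Trdn. At the common peaks it had 7.03 and 5.45 RPM (Jph1), 4.35 and 4.09 RPM (Bin1) and 5.69 and 11.6 RPM (Dysf). Pol II lies furthest right at the peak beyond the end of Bin1.

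At the start sites themselves Sox6 was not detectably higher than input at this depth. Sox6 reads numbered from 0 to 6 per gene and library, near the floor of 3 reads, and the median gene had 1. By limma 0 of 9 starts had a call, where 2.22% of 18854 genes did, and 3 of 9 were under an unadjusted p of 0.05, as were 15.7% of all genes tested. The members' median log2 ratio was 0.38, beside 0.63 for all genes tested, which became -0.34 with a pseudocount equal in RPM. The 3 were Jph1, with 1 and 2 Sox6 reads against 3 and 6 of input (2.16, SE 1.01, adjusted p = 0.268), Jph2, with 4 and 3 against 17 and 15 (1.41, adjusted p = 0.204), and Bin1, with 2 and 2 against 9 and 7 (1.71, adjusted p = 0.289). Stac3 had 1 and 1 reads against 27 and 29 (-0.78, adjusted p = 0.635). The others lay between 0.33 and 1.47, and each of them fell below 0 in a fit with a library left out. The lowest such values were -0.17 for Trdn, -0.43 for Jsrp1, -0.63 for Cacnb1, -0.61 for Cav3 and -0.78 for Dysf. Without Sox6 replicate 1, 7 of 9 had a call, all but Trdn and Stac3, as did 6899 of all genes, up from 419, but that fit has 1 Sox6 library, and its spread comes from the 2 input libraries alone. Limma's voom weights gave 0 of 9. With 1000 bp to either side, the window of Jph1 takes in the peak 0.892 kb before it, and that gene alone had a call (2.69, adjusted p = 0.00817, over a range of 0.00322 to 0.694 in all settings).

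Over the gene bodies Sox6 read counts were larger and small shifts could be seen. Sox6 was higher than input in 4 of 9 bodies, where 5.45% of 20758 genes were higher, and lower in 1 of 9, where 1.75% were lower. The members' median was 0.67 and that of all genes was 0.18. Jph2 had 238 and 149 Sox6 reads against 964 and 1147 of input, or 79.7 and 101 against 43.9 and 47.3 RPM, a log2 ratio of 0.98 (SE 0.13, adjusted p = 0.0107). Cacnb1 had 64 and 41 against 229 and 332 reads, a ratio of 1.05 (SE 0.20, adjusted p = 0.0214). Bin1 had 190 and 98 against 874 and 1025, a ratio of 0.67 (SE 0.11, adjusted p = 0.0143), and Dysf 655 and 350 against 3430 and 4097, a ratio of 0.50 (SE 0.09, adjusted p = 0.0161). These ratios are folds of 1.98, 2.06, 1.59 and 1.41. Trdn went the other way, with 575 and 293 against 5687 and 6184 reads, or 193 and 200 against 259 and 255 RPM, a ratio of -0.39 (SE 0.08, adjusted p = 0.0209).

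The remaining 4 bodies had no call. Jsrp1 gave 1.28 (SE 0.35, adjusted p = 0.0563) from 15 and 11 reads against 62 and 58, and it passed in 7 of 12 settings. Stac3 gave 0.73 (adjusted p = 0.0946), Jph1 0.11 (adjusted p = 0.553) and Cav3 0.07 (adjusted p = 0.861). With a pseudocount equal in RPM no gene of all those tested had a call, and the adjusted p was 0.0923 for Jph2, Trdn, Bin1 and Dysf and 0.0969 for Cacnb1. The lower call of Trdn also ended without input replicate 1 (-0.38, adjusted p = 0.121). Without input replicate 1 Jph2 and Dysf were the members still higher. Only the peak in intron 3 of Jph2 lies inside one of the 4 higher bodies, and no deposited Sox6 peak lies inside the other 3.

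Pol II and base composition varied among the genes too, and their part in the Sox6 ratios was not tested. The 4 higher bodies had Pol II body ratios of 3.77 (Jph2), 3.74 (Cacnb1), 4.22 (Bin1) and 2.60 (Dysf), and Trdn had 0.63. Of the 4 without a Sox6 call, Jsrp1 had a Pol II ratio of 3.84, Cav3 3.54, Stac3 3.36 and Jph1 2.08. Sox6 and Pol II were set against the same 2 input libraries, so no relation between the 2 ratios is given. GC content from start to end was 36.0% for Trdn, 40.4% for Jph1 and 47.5% for Cav3, whose Sox6 log2 ratios were -0.39, 0.11 and 0.07. It was 48.9% for Dysf, 49.9% for Jph2 and 50.4% for Bin1, with ratios of 0.50, 0.98 and 0.67. It was 51.6% for Stac3, 53.1% for Jsrp1 and 53.3% for Cacnb1, with ratios of 0.73, 1.28 and 1.05, and the median GC content of all genes was 45.6%. The Sox6 ratio was thus mostly larger in the genes of higher GC content, which is given as a description of 9 genes measured in the same libraries. Of the 30 other coupling genes, Sox6 was higher over the body of 10, against 5.45% of all genes tested. At the start 2 of the 30 were not tested and Sox6 was higher at 1, against 2.22% of all genes tested. That gene was Casq1 (1.98, limma's adjusted p = 0.0374), which is named here after its values were seen.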

How the data were processed

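Chromatin immunoprecipitation and sequencing (ChIP-seq) libraries were grouped as labelled into Sox6, Pol II and input, with 2 replicates each. Per the submitters' processing notes and the study's methods, reads were aligned with Bowtie 0.12.5 to NCBI Build 37, those mapping to a single place were kept, peaks were called against input with SISSRs 1.4, set to fragments of 450 bp, and Sox6 peaks of both experiments lying no more than 50 bp apart were joined in the ChIP-Seq Tool Set 1.0. The files the authors deposited hold positions of reads and of peaks. The unnamed score column of the deposited Pol II peaks was not used. Repeated positions were still present in the reads of every library, where they make up between 2.96% and 7.88%. The sources used here do not state how they were handled. Read length was 36 bp in input replicate 1 and 39 bp in the others.

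The genes and lists were chosen with earlier results of these data known. Reads were counted here by their 5′ end with Python 3.11.15, numpy 2.4.6 and scipy 1.17.1, on the longest model of each GENCODE gene with a RefSeq transcript. Ratios to input were fitted with limma 3.58.1 (R 4.3.3, trended variance) on log2 RPM (0.5 reads added), for features with at least 10 reads over 4 libraries, two-sided, with Benjamini-Hochberg adjustment over all features and a threshold of 0.05. Single-replicate peaks were tested with an exact binomial test. Of the scripts, the limma fits alone were tested on simulated reads, with known rises larger than the Sox6 body folds above. The binomial test, the placing of peaks and the motif search were not tested in this way. All 9 genes are named. Paralogs were named with their level, and of the coupling list the 3 highest and 3 lowest start ratios. Alternatives were other windows, repeated positions once, an equal pseudocount, no filter, scaling to 251746 peak-free bins of 10 kb, voom weights, a replicate block, and each library left out. Figures were drawn with matplotlib 3.10.9. Protein sequences were not used here.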

Additional observations from a re-analysis of the deposited data

How the results depend on the processing

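All 107 alternative values for Pol II at the 9 starts and all 99 over the 9 bodies kept their direction and their call. With 250 bp windows Jph1 was not tested. The Sox6 results were less stable. The Sox6 start ratios of Trdn, Jsrp1, Stac3, Cacnb1, Cav3 and Dysf changed sign among the settings. So did the Sox6 body ratio of Cav3, which ran from -0.07 to 0.20. At starts the count over all genes, 419, became 259 with 250 bp, 75 with 1000 bp, 150 with a pseudocount equal in RPM, 1479 with no filter and 72 with voom weights, and between 1 and 6899 when a library was left out (6899 without Sox6 replicate 1, 1737 without Sox6 replicate 2, 1 and 4 without input replicate 1 and 2). The members' count there, 0, became 1 with 1000 bp and between 0 and 7 with a library left out. Over bodies the 1131 higher genes became 0 with the equal pseudocount and 2410 with no filter, and between 183 and 7305 with a library left out (7305 and 4558 without Sox6 replicate 1 and 2, 183 and 521 without input replicate 1 and 2). The members' 4 became 0 and, with a library left out, between 2 and 6. Of the single-gene Sox6 values over bodies, 82 of 99 kept their call, 8 lost it and 9 gained it. Of those at starts, 95 of 103 kept it and 8 gained it. The cause was not tested. A fit with a library left out has a group of 1 library, which is assumed to vary like the other group.

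Of the 3 common peaks listed, 2 had a Pol II call, which became 3 with 1000 bp or the peak-free scaling, 1 with the equal pseudocount, and between 1 and 2 with a library left out. Over all common peaks the 623 calls became between 293 and 615 with a library left out (293 and 312 without input replicate 1 and 2) and lay between 432 and 756 in the other settings. The 1 common peak within the search distance became 0 inside genes alone and 3 within 50 kb of every gene. The median Pol II level of the 9 genes, taken in each library and averaged over both, was 8.48 RPKM, and 8.63 with repeated positions once. Of the 9 levels, those of Jph2 (10.2 to 10.1 RPKM) and Trdn (1.03 to 1.02 RPKM) moved by more than the SD of their 2 libraries. All 36 Sox6 values at the 3 common peaks kept their call, but these peaks were called on the same reads, so this is a description.

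The labels do not say whether same-numbered ChIP and input libraries came from one experiment. The study's methods name a background input for every ChIP experiment. The deviations of same-numbered ChIP and input libraries from their group means correlated at between -0.05 and 0.05 in the 6 comparisons. Such values cannot settle whether the libraries were paired. With the replicate block, 2800 bodies were higher for Sox6 and 5 of 9 members, and Jsrp1 was the member gained. The block changed no other member's call in the body or start comparisons. Precision is limited by depth: the Sox6 libraries held 1 read at the median start window, and counts of 3 or fewer reads cannot separate the genes.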
